A study of Mus musculus with 144 samples.

Results

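The 39 genes described here are genes of proliferation and the cell cycle, chosen by name with earlier results of these data known. All were matched by symbol among the 55364 genes of the deposited table. They were read in single microglia, the resident macrophages of the nervous system, sorted from mouse retina before and after crush of the optic nerve. The 39 genes were grouped by role into 7 replication licensing genes, 6 genes of replication and nucleotide supply, 9 genes of mitosis, 6 regulators of G1, and 11 genes of chromatin, tubulin and nuclear transport. The first 2 of these groups are counted together below as 13 S phase genes.

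All animals were C57BL/6 mice aged 20 to 22 months carrying Iba1-EGFP, in which the Iba1 promoter, active in microglia and in other cells of the macrophage lineage, drives a green fluorescent protein. The 3 groups were untreated (uncrushed) retina with 54 wells, retina taken 2 days after crush with 36 wells, and retina taken 4 days after crush with 54 wells. Each of the 144 wells held 1 cell sorted by flow cytometry, on 3 plates of 48 wells, and each group filled its own rows of every plate, so row and group cannot be told apart. No label named an animal, so each group counts as 1 sample. No test was therefore made between groups, and every SD or interval covers the wells or the counting of wells, without the spread between animals. For 18 wells of plate 1 the title gave day 4 and the treatment tag day 2, and they were taken as day 4 by title.

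A dividing cell first licenses its replication origins by loading the Mcm helicase in G1, and then fires them and supplies nucleotides in S phase. Mitotic cyclins, Cdk1 and the chromosome proteins that act with them accumulate later, so S phase and mitosis transcripts mark different stretches of the same cycle. Microglia are known to divide locally after injury to the retina or the optic nerve, while in the uninjured adult tissue they turn over slowly.

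The wells fell into 2 ranges of depth. Deep wells, with 50000 or more reads recovered from the deposited FPKM values (fragments per kilobase of gene, scaled to library size), numbered 39 uncrushed, 25 day 2 and 24 day 4 wells, with medians of 507813, 657516 and 853209 reads in that order and a range of 60079 to 8065065. The 56 shallow wells had at most 14205 reads. In a shallow well 1 read of Mcm3 was worth a median of 128 FPKM, against 0.407 FPKM in a deep well. Levels below are therefore over deep wells unless said otherwise, and a gene is called found in a well at 10 or more reads. Depth and complexity moved with the groups: uncrushed deep wells had reads in a median of 3161 genes, day 2 wells in 3777 and day 4 wells in 4992. After thinning every deep well to 50000 reads the medians were 1250, 1513 and 2220 genes in the same order.

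The label of the cells was checked against 14 microglia markers, among them Cx3cr1, P2ry12 and Tmem119. At least 3 of them were found in 37 of 39 uncrushed, 21 of 25 day 2 and 22 of 24 day 4 deep wells. Markers of other cells were present too. At least 3 of 8 neutrophil markers were found in 3 of 39 uncrushed wells, 9 of 25 day 2 wells and 7 of 24 day 4 wells, and the summed level of the list had medians of 13.4, 59.5 and 169 RPM (reads scaled to equal library size). Of 8 markers of immature neutrophils, which still divide in bone marrow, Elane, Mpo, Prtn3, Camp, Ngp, Ltf and Cebpe stayed under 10 reads in every deep well of all 3 groups. The remaining one, Lcn2, reached 10 reads in uncrushed and day 2 deep wells but in no day 4 deep well. No deep well had 3 or more of 7 monocyte markers, and no endothelial or lymphocyte marker reached 10 reads.

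Promoters of licensing genes are known for E2F elements and those of mitosis genes for the cell cycle homology region, so 3 promoters of each class are printed before the values. Of the 39 genes, 32 have a promoter in the RefSeq table for GRCm38.p6, each running from 250 bases before to 50 after the start of the gene. Capitals in the Mcm3, Mcm5 and Mcm6 promoters mark the E2F words TTTCCCGC, TTTCGCGC, TTTGCCGC or TTTGGCGC on either strand, and in Mcm5 and Mcm6 matches on opposite strands overlap. Each sequence is written 5′ to 3′ along its gene.
Mcm3, chr1:20820263-20820562, minus strand: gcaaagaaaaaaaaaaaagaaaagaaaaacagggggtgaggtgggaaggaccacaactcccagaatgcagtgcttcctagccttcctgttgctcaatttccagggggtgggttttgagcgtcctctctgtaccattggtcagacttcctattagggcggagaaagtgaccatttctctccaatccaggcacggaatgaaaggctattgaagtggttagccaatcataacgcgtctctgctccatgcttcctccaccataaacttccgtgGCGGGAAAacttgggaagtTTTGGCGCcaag
Mcm5, chr8:75109259-75109558, plus strand: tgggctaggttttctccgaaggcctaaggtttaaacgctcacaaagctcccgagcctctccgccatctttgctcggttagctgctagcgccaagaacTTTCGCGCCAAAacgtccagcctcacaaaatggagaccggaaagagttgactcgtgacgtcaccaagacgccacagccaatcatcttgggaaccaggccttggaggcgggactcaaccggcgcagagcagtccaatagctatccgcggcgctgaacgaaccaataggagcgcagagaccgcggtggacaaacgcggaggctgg
Mcm6, chr1:128359656-128359955, minus strand: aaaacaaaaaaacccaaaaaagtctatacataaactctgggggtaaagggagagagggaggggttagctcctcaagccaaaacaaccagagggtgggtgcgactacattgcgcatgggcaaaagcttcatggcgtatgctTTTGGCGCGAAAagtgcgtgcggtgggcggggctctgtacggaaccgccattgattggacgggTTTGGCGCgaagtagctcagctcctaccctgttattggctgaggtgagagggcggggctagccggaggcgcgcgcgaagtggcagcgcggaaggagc
E2F words of these 4 spellings stood in 2.26% of all 32851 promoters of the table. They stood in the promoters of 4 of the 5 licensing genes that have one, namely Mcm3, Mcm5, Mcm6 and Mcm7, in none of the 6 genes of replication and nucleotide supply, in 1 of 8 mitosis genes (Cdk1) and in 1 of 9 genes of chromatin, tubulin and transport (Ranbp1).

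Capitals in the next 3 promoters mark the cell cycle homology region, the words TTTGAA and TTCGAA on either strand, which is known from genes of the late cell cycle.
Mki67, chr7:135716330-135716629, minus strand: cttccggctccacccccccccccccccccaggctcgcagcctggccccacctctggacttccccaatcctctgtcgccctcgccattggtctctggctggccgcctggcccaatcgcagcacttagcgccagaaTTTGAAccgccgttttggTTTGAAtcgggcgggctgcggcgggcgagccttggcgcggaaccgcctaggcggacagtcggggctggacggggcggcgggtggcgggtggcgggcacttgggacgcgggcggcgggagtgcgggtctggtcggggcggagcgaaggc
Top2a, chr11:99024140-99024439, minus strand: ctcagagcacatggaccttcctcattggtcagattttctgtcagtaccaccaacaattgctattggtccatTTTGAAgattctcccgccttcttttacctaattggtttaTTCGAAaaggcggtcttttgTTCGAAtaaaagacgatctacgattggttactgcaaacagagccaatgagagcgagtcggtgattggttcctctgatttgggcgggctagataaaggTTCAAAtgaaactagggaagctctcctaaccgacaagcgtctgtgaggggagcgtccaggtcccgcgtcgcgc
Ccnb2, chr9:70421505-70421804, minus strand: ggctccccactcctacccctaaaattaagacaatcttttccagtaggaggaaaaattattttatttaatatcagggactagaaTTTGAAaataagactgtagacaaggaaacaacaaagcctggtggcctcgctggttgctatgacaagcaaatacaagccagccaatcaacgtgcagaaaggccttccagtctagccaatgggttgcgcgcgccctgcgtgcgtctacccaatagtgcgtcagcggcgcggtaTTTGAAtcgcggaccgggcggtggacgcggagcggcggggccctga
These 2 short words stood in 19.2% of all promoters, and in those of 5 of the 8 mitosis genes that have one, which were Ccnb2, Cdk1, Mki67, Top2a and Ube2c. They also stood in 2 of 5 licensing genes (Mcm2 and Mcm7), 0 of 6 genes of replication and nucleotide supply, 1 of 4 G1 regulators (Cks1b) and 3 of 9 genes of chromatin, tubulin and transport (Dek, Hmgb2 and Ranbp1). A match is only a description of the letters, and a promoter without one says nothing about the factor.

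At the limit of 10 reads per gene, deep wells with 3 or more S phase or mitosis genes were seen in both crush groups and in no uncrushed well. At least 3 of the 13 S phase genes were found in 0 of 39 uncrushed wells, which allows a share of up to 9.03% (exact 95% Clopper-Pearson interval), in 9 of 25 day 2 wells (36%, 18% to 57.5%) and in 8 of 24 day 4 wells (33.3%, 15.6% to 55.3%). At least 3 of the 9 mitosis genes were found in 0 of 39 uncrushed wells, in 4 of 25 day 2 wells (16%, 4.54% to 36.1%) and in 4 of 24 day 4 wells (16.7%, 4.74% to 37.4%). These intervals, like all others here, cover counting error only, because reads had no molecular identifiers and wells of a group may share an animal. Counting a well that met either criterion gave 0 of 39 uncrushed, 11 of 25 day 2 (44%, 24.4% to 65.1%) and 11 of 24 day 4 wells (45.8%, 25.6% to 67.2%). The day 2 and day 4 shares lay inside each other's intervals. Counting a gene at 1 read, the S phase criterion was met by 5.13% of uncrushed, 44% of day 2 and 50% of day 4 wells, and the mitosis criterion by 2.56%, 24% and 33.3%.

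**Figure D1:**
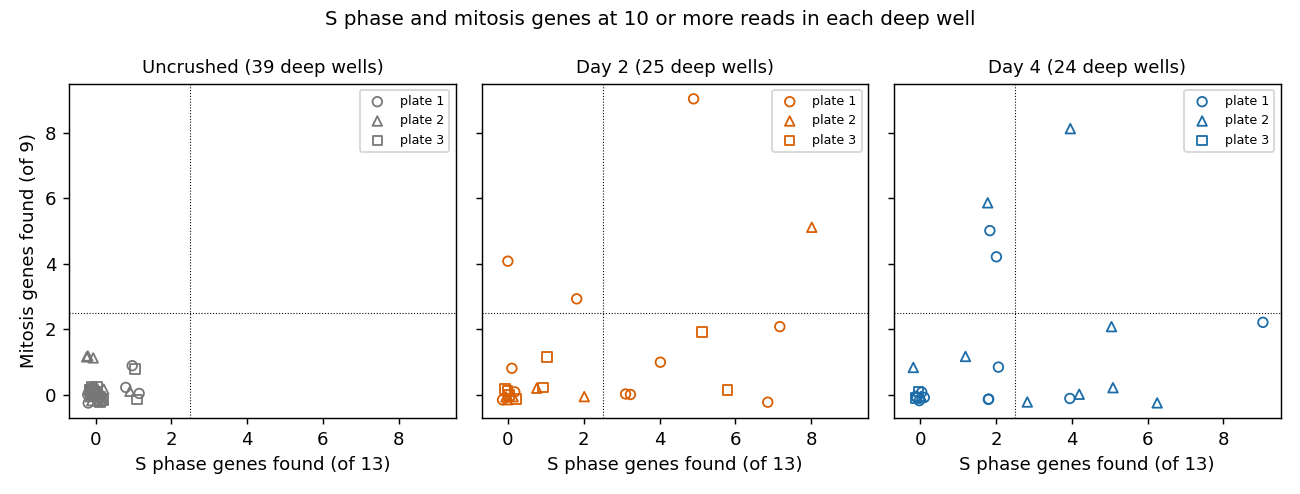
Each point is 1 deep well, with the number of the 13 S phase genes found at 10 or more reads on the x axis and the number of the 9 mitosis genes on the y axis, for uncrushed, day 2 and day 4 wells; symbols give the plate and points are jittered. Dotted lines stand between 2 and 3 genes: all 39 uncrushed wells lie at 0 or 1 on both axes, while 11 day 2 and 11 day 4 wells lie past a line.

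More wells met 1 of the 2 criteria than met both. At day 2, 7 wells met the S phase criterion alone, 2 the mitosis criterion alone and 2 both, and at day 4 the counts were 7, 3 and 1. Whether so few shared wells differ from what unrelated criteria would give was not tested. In uncrushed wells members of these lists came singly: 6 of 39 wells had exactly 1 S phase gene and 5 had exactly 1 mitosis gene. The median deep well had 0 S phase genes in uncrushed, 1 in day 2 and 2 in day 4 retina, with highest counts of 1, 8 and 9. For mitosis genes all 3 medians were 0, and the highest counts were 1, 9 and 8. Over all 39 genes the median well had 3, 8 and 9 found, and the richest had 11, 27 and 26.

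The wells with the most cell cycle genes show how complete the programme could be in a single cell. A day 2 well on plate 1, with 8065065 reads and 9207 genes, held all 9 mitosis genes, from Mki67 and Top2a to Ccnb1, Birc5 and Ube2c, with 5 S phase genes. It also held all 14 microglia markers and 0 neutrophil markers. A day 2 well on plate 2 with 802791 reads held 8 S phase genes, among them Mcm3, Mcm5, Mcm6, Pcna and Dut, with 5 mitosis genes, and had 10 microglia and 3 neutrophil markers. Another day 2 well on plate 1 held 7 S phase genes with only Ccna2 and Cks2 of the mitosis list, and 13 microglia markers.

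Day 4 had wells of the same kinds. A plate 2 well with 869271 reads held 8 of the 9 mitosis genes and 4 S phase genes, with 14 microglia and 3 neutrophil markers. A plate 1 well with 761081 reads held 9 S phase genes, including Mcm2, Mcm3, Mcm6, Mcm7 and the only Rrm2 found in any deep well, and 2 mitosis genes. It is among the 18 wells whose tag says day 2. The uncrushed well that came closest, on plate 3, had 1303009 reads, 7711 genes and 14 microglia markers, and held Pcna and Cdk1 as its only S phase and mitosis genes.

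Wells that met either criterion also had reads in more genes. At day 2 their median was 5650 genes with any read, against 2912.5 in the other 14 wells, and at day 4 it was 8553 genes against 3247 in the other 13. Their median depth was 802791 against 596058 reads at day 2 and 879330 against 743381 reads at day 4. Among uncrushed wells, 14 had at least 3738 genes, the lowest number seen in a well that met either criterion, and none of those 14 held more than 1 S phase or 1 mitosis gene. At or above the same number of genes, 11 of 13 day 2 wells and 11 of 16 day 4 wells met either criterion. With all wells thinned to 50000 reads and a gene counted at any read, the S phase criterion was met by 0 of 39 uncrushed, 9 of 25 day 2 and 9 of 24 day 4 wells, and the mitosis criterion by 0, 3 and 4.

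**Figure D2:**
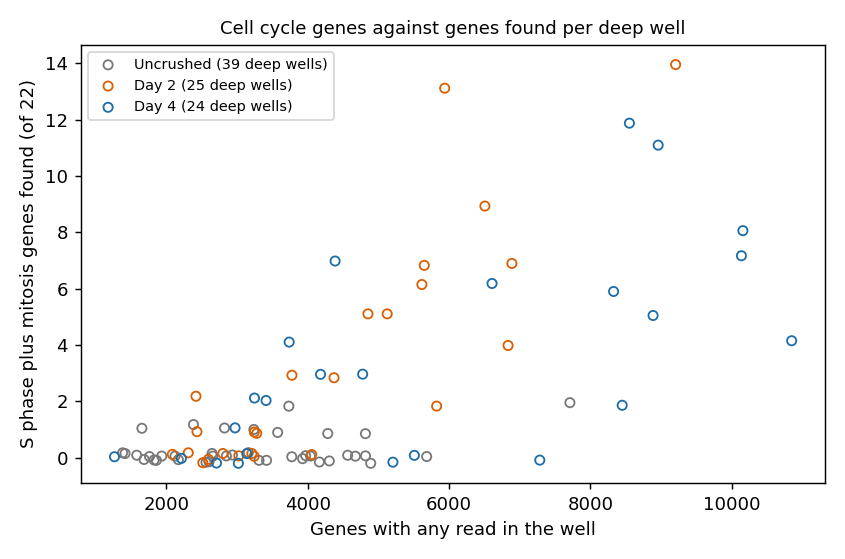
Each point is 1 deep well, with the genes having any read on the x axis and the S phase plus mitosis genes found, of 22, on the y axis (jittered vertically). Uncrushed wells stay at 2 or fewer across their whole range of up to 7711 genes, whereas day 2 and day 4 wells with 4 or more such genes lie at 3738 genes or more.

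Markers of microglia were found in every well that met either criterion. Such day 2 wells held 8 to 14 of the 14 markers with a median of 12, and such day 4 wells 10 to 14 with a median of 14. The remaining wells held 0 to 14 (median 6) at day 2 and 1 to 14 (median 8) at day 4. At least 3 neutrophil markers were found in 4 of the 11 wells at day 2 and in 4 of the 11 at day 4, none of them held an immature neutrophil marker, and 1 day 2 well also held 12 of 13 rod photoreceptor markers. Leaving out every well with 3 or more neutrophil, immature neutrophil or rod markers, either criterion was met by 0 of 32 uncrushed wells (up to 10.9%), 7 of 16 day 2 wells (43.8%, 19.8% to 70.1%) and 7 of 17 day 4 wells (41.2%, 18.4% to 67.1%). That rule did not use the 6 markers of Müller glia, of which 1 day 2 and 1 day 4 well held 3: the day 2 well, with 5 S phase genes, is among the 7 of 16, and the day 4 well was left out for its other markers.

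Plates differed in these shares. The S phase criterion was met at day 2 by 6 of 11 wells on plate 1, 1 of 6 on plate 2 and 2 of 8 on plate 3. At day 4 it was met by 2 of 12 wells on plate 1, where all 12 have the conflicting tag, 6 of 10 on plate 2 and 0 of 2 on plate 3, a count that allows up to 84.2%. Uncrushed wells gave 0 of 11, 0 of 15 and 0 of 13. Without the conflicting wells the day 4 share was 50%, and counting them as day 2 made the day 2 share 29.7%. Without plate 1 the day 2 shares were 21.4% for S phase and 7.14% for mitosis and the day 4 S phase share 50%, and without plate 2 the day 4 S phase share was 14.3%.

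Levels of the 39 genes were compared as the mean of log2(FPKM + 1) over deep wells, a scale that understates differences of low genes. A difference of 1 or more, a 2-fold difference, was used as a size rule and is no test. At day 2, 22 of the 39 genes were higher than in uncrushed wells by 1 or more and none was lower by that much. A gene with a mean log2 level under 1 in uncrushed wells could not be lower by 1. That held for the 18 of the 39 genes found in no uncrushed deep well, among others. Of the 6901 genes found in at least 5% of the deep wells of both groups together, 18.9% were higher by 1 or more and 1.46% lower. That is a filter that 29 of the 39 passed, and a gene found in no uncrushed well could pass it only through crush wells. The counts of the 39 and of each role list also take in genes that failed it. Because the lists were chosen with earlier results of these data known, their contrast with all genes is no independent support. The median difference of the 39 was 1.07, against 0.36 over those 6901 genes. Without the wells holding markers of other cells it was 1.18, and by plate it was 1.54, 1.09 and 0.28. Ccnd2 alone lay below 0.

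**Figure D3:**
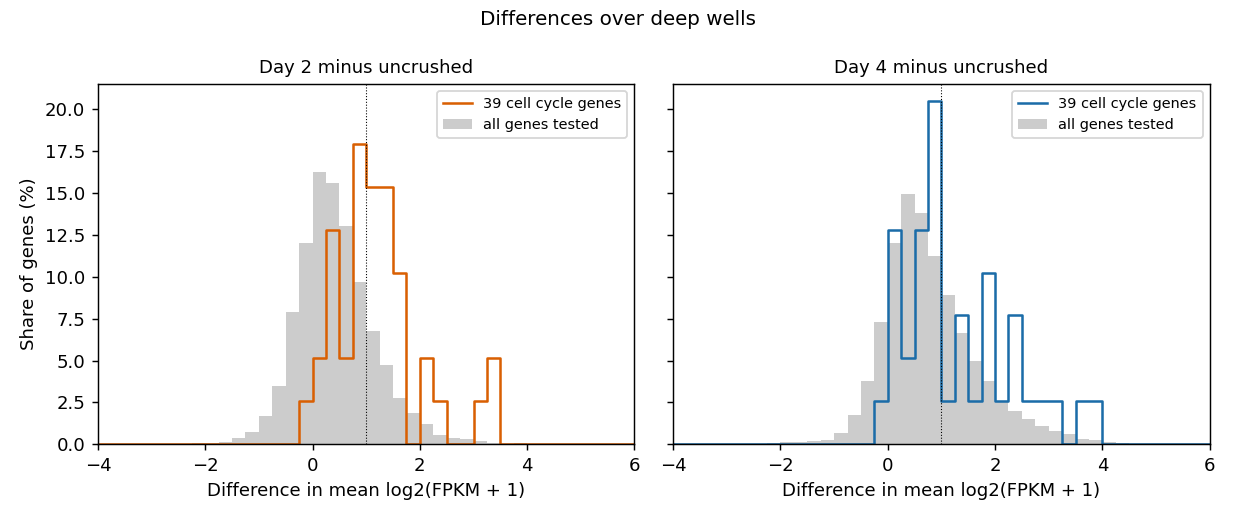
Distribution of the difference in mean log2(FPKM + 1) over deep wells, for day 2 minus uncrushed on the left and day 4 minus uncrushed on the right; the y axis is the percentage of genes per bin, the outline the 39 cell cycle genes and grey all genes compared. The dotted line marks a difference of 1, passed by 22 of the 39 genes at day 2 and by 18 at day 4; the grey mass also lies to the right of 0, with medians of 0.36 and 0.66.

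At day 4, 18 of the 39 genes were higher than in uncrushed wells by 1 or more. None was lower by 1, a fall that low uncrushed levels again made impossible for many of them. The background was larger, with 33.7% of 8396 genes higher by 1 or more and 0.834% lower, and 27 of the 39 passed its filter. The median difference was 0.95 for the 39 and 0.66 over all genes compared. By plate the median was 0.95, 1.36 and 0, and plate 3 held only 2 deep day 4 wells. Both comparisons share the uncrushed wells, so their values are not independent of each other. Centred on the median of all genes compared, the counts were 14 of 39 at day 2 and 14 of 39 at day 4. Over all wells, shallow ones included, they were 13 and 8. The shares of all genes after centring or over all wells are not given here. These counts therefore cannot be set against the uncentred shares over deep wells.

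The licensing genes, whose Mcm2 to Mcm7 products form the replicative helicase, were found in none of the 39 uncrushed deep wells. How many of all genes were likewise found in none is not given here. Mcm3 ranged in FPKM from 0 to 2.35 in uncrushed, 0 to 704 in day 2 and 0 to 538 in day 4 wells, with a median of 0 in each. Wells with it numbered 0 of 39, 7 of 25 (28%, 12.1% to 49.4%) and 8 of 24 wells (33.3%, 15.6% to 55.3%). Most wells of every group thus had none, and the 7 day 2 wells in which Mcm3 was found had 135 FPKM or more. The mean log2 level was 2.40 ± 3.58 at day 2 and 0.12 ± 0.37 in uncrushed wells (SD over wells), a difference of 2.28, with 2.66, 1.20 and 2.62 on the 3 plates. At day 4 the difference was 1.94, with 0.65, 3.8 and 0 by plate.

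Mcm6, the helicase subunit with the largest day 4 difference, had highest values of 3.57 FPKM in uncrushed, 251 in day 2 and 361 in day 4 wells, with a median of 0 in each. Of the crush groups, 3 of 25 day 2 wells held it (12%, 2.55% to 31.2%) and 9 of 24 day 4 wells did (37.5%, 18.8% to 59.4%). Its mean log2 level differed from uncrushed by 0.79 at day 2 and by 2.44 at day 4. Its wells at day 4 came from plates 1 and 2, with 4 and 5 of them.

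Mcm4 was found in 5 day 2 and 3 day 4 wells at 35.1 FPKM or more, and differed from uncrushed by 1.41 and 0.86. Gmnn encodes geminin, which blocks relicensing once S phase has begun. It stood in 4 day 2 wells, at 73.1 to 599 FPKM, and in 2 day 4 wells, with differences of 1.32 and 0.53. Mcm5 was found in 5 day 2 wells, at up to 256 FPKM, and in 1 day 4 well at 4.56 FPKM, with differences of 1.30 and 0.08. Mcm2 and Mcm7 were found in 2 and 1 wells at day 2 and in 4 wells each at day 4, and neither differed from uncrushed by 1 on either day. In all, 4 of the 7 licensing genes (57.1%) were higher by 1 or more at day 2, beside 18.9% of all genes compared. At day 4 the count was 2 of 7 (28.6%), beside 33.7% of all genes compared, with a median of 0.86 beside 0.66. The filter of all genes compared was passed by 4 of the 7 on each day, and the genes higher by 1 or more were among them. None of the 7 was found in an uncrushed deep well, so each could pass only through crush wells. Passing therefore adds no support, and these shares cannot be ranked against those of all genes compared.

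**Figure D4:**
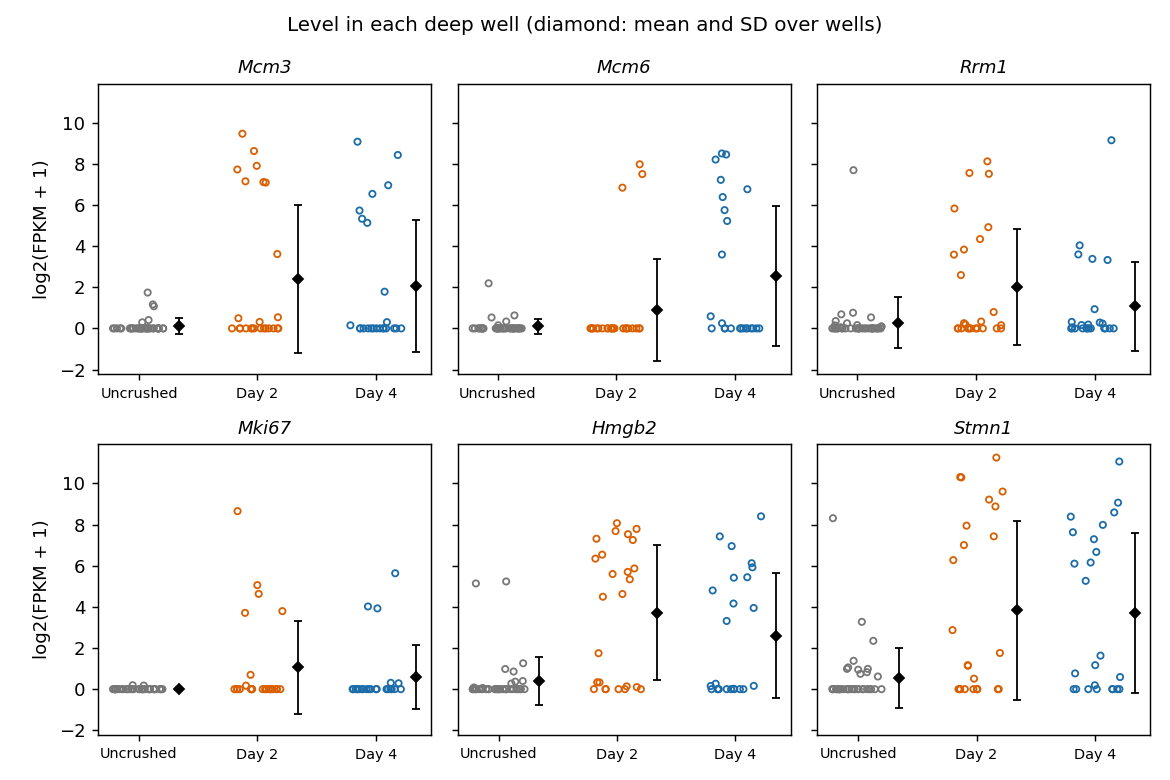
Level of Mcm3, Mcm6, Rrm1, Mki67, Hmgb2 and Stmn1 as log2(FPKM + 1) on the y axis, with 1 point per deep well for uncrushed, day 2 and day 4; diamonds and bars are the mean and SD over wells. Each gene is at or near 0 in most uncrushed wells and splits into wells near 0 and wells well above it on both days; Mcm3 reaches 704 FPKM at day 2 and Stmn1 2443.

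Of the genes of replication and nucleotide supply 2 of 6, Dut and Rrm1, were higher by 1 or more at day 2 and 1 of 6, Pcna, at day 4. These shares of 33.3% and 16.7% stand beside 18.9% and 33.7% of all genes compared, and the list medians of 0.95 and 0.69 beside 0.36 and 0.66. Dut, the dUTPase that keeps uracil out of DNA, was found in 1 of 39 uncrushed wells at 901 FPKM. At day 2 it stood in 7 of 25 wells (28%, 12.1% to 49.4%) at 92.7 to 914 FPKM, and at day 4 in 1 of 24 wells (4.17%, 0.105% to 21.1%) at 71.4 FPKM. The single uncrushed well with Dut lay within the day 2 range. Its mean log2 level differed from uncrushed by 2.09 at day 2 and by 0.10 at day 4.

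Rrm1, the large subunit of ribonucleotide reductase, stood in 1 of 39 uncrushed wells, in 9 of 25 at day 2 (36%, 18% to 57.5%) and in 5 of 24 at day 4 (20.8%, 7.13% to 42.2%). Its highest values were 206 FPKM in uncrushed, 277 in day 2 and 565 in day 4 wells. The differences from uncrushed were 1.72 at day 2 and 0.79 at day 4, and the day 4 value was -0.01 without the wells holding markers of other cells. Rrm2, the small subunit, was found in 0 uncrushed, 0 day 2 and 1 day 4 well.

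Pcna, the sliding clamp of the replication fork, was the S phase gene met most often before crush. The gene stood in 4 of 39 uncrushed wells at 91.1 to 318 FPKM, in 6 of 25 day 2 wells and in 8 of 24 day 4 wells, where it reached 861 FPKM. All 3 groups overlap, and its difference from uncrushed was 0.91 at day 2 and 1.75 at day 4. Of its values under 100 reads 60% were whole numbers of reads within 0.01, the others being fractions of a read. Tk1, thymidine kinase, was found in 0, 4 and 3 wells, and its mean log2 level of 1.01 ± 2.33 at day 2, against 0.012 ± 0.078 in uncrushed wells (SD over wells), fell just short of the size rule; its day 4 difference was 0.63. Tyms, thymidylate synthase, was found in 0, 2 and 4 wells and differed by less than 1 on both days.

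The mitosis genes were found in few wells at high levels. Mki67, which codes for the Ki-67 protein of dividing cells, had at most 0.141 FPKM in any uncrushed well and was found in 0 of 39. It was found in 5 of 25 day 2 wells (20%, 6.83% to 40.7%) at 12.1 to 401 FPKM, and in 3 of 24 day 4 wells (12.5%, 2.66% to 32.4%) at 14.2 to 48.6 FPKM. At day 2 the difference from uncrushed was 1.06, where 4 of the 5 wells were on plate 1, and at day 4 it was 0.58. Without the wells holding markers of other cells the day 2 difference was 0.54.

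Birc5, or survivin, a member of the chromosomal passenger complex, had at most 1.09 FPKM in uncrushed wells. Survivin transcripts stood in 2 of 25 day 2 wells (8%, 0.984% to 26%) and 6 of 24 day 4 wells (25%, 9.77% to 46.7%), with highest values of 354 and 1103 FPKM. Its difference from uncrushed was 0.65 at day 2 and 1.92 at day 4. The B-type cyclin Ccnb2 was found in 0, 2 and 4 wells, the 2 day 2 wells at 1024 and 2138 FPKM, with differences of 0.88 and 1.23.

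Ccna2, the cyclin of S phase and early mitosis, was found in 1 uncrushed well at 201 FPKM, in 6 day 2 wells and in 4 day 4 wells. It differed from uncrushed by 1.21 and 0.61. Cdk1, the kinase that drives entry into mitosis, differed by 0.15 and 0.31, and 2 uncrushed wells held it, the higher at 1484 FPKM. Top2a, Ccnb1, Ube2c and Cks2 were found in 1 to 4 wells of each crush group and differed by less than 1. Altogether 2 of the 9 mitosis genes (22.2%) were higher by 1 or more at day 2, Ccna2 and Mki67, beside 18.9% of all genes compared, and 2 of 9 at day 4, Birc5 and Ccnb2, beside 33.7%. The median difference of the 9 was 0.69 at day 2 and 0.61 at day 4, where all genes compared had 0.36 and 0.66. Only 5 of the 9 passed the filter of those genes on each day, so the list and the background are not on equal terms. The 2 genes higher by 1 or more were among the 5 on each day.

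**Figure D5:**
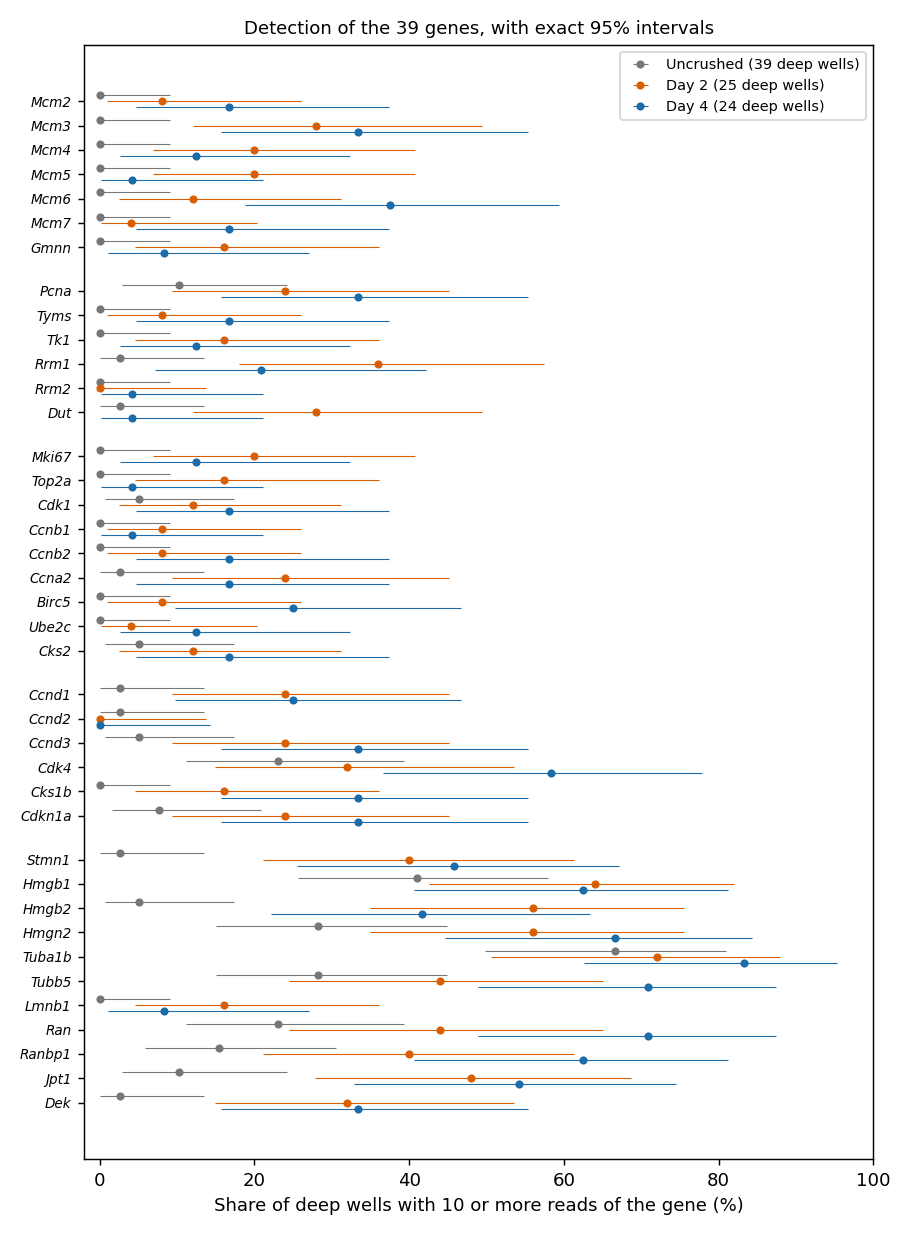
Share of deep wells in which each of the 39 genes was found at 10 or more reads, as a percentage on the x axis, for uncrushed, day 2 and day 4 wells from top to bottom within each gene; bars are exact 95% intervals and blocks follow the 5 role groups. Of the 39 genes 18, including every licensing gene, were found in 0 of 39 uncrushed wells, and Tuba1b has the highest share in each group. The share of all genes found in no uncrushed well is not given here, so the 18 are not read as a trait of this list.

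The G1 regulators included genes already found in uncrushed wells, and 3 of 6 were higher by 1 or more at day 2 and 4 of 6 at day 4, beside 18.9% and 33.7% of all genes compared. Cdk4, the kinase that D-type cyclins activate, was found in 9 of 39 uncrushed wells (23.1%, 11.1% to 39.3%), 8 of 25 day 2 wells (32%, 14.9% to 53.5%) and 14 of 24 day 4 wells (58.3%, 36.6% to 77.9%). Its median was 0 FPKM in uncrushed and day 2 wells and 18.2 FPKM in day 4 wells, with highest values of 978, 293 and 798 FPKM. The highest single value was thus in an uncrushed well. It differed from uncrushed by 0.82 at day 2 and by 2.54 at day 4, with 2.39, 2.27 and 3.79 on the 3 plates.

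Cks1b, a small partner of cyclin-dependent kinases that helps to degrade the inhibitor p27, had at most 1.67 FPKM in uncrushed wells. It was found in 4 day 2 and 8 day 4 wells and differed by 1.42 and 2.41. Of the D-type cyclins, Ccnd3 was found in 2, 6 and 8 wells with differences of 0.90 and 1.39, and Ccnd1 in 1, 6 and 6 wells with differences of 1.20 and 0.95. Ccnd2 was found in 1, 0 and 0 wells.

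Cdkn1a encodes p21, which inhibits cyclin-dependent kinases and is known for arrest after p53 activation. It was found in 3 of 39 uncrushed wells (7.69%, 1.62% to 20.9%), 6 of 25 day 2 wells (24%, 9.36% to 45.1%) and 8 of 24 day 4 wells (33.3%, 15.6% to 55.3%), at up to 89.0, 249 and 195 FPKM. It differed from uncrushed by 1.07 at day 2, with 2.84, -0.44 and 0.01 on the 3 plates. At day 4 it differed by 1.35, with 2.00, 1.53 and -0.65 by plate. Without the wells holding markers of other cells the differences were 0.61 at day 2 and 1.28 at day 4. Only plate 1 gave a day 2 difference above 1. Most wells with this inhibitor were wells with cell cycle genes: it stood in 5 of the 11 day 2 wells that met either criterion and in 1 of the other 14, and in 7 of 11 and 1 of 13 at day 4.

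The genes of chromatin, tubulin and nuclear transport gave the largest median differences of the 5 role groups, 1.65 at day 2 and 2.23 at day 4. All 11 were higher than in uncrushed wells by 1 or more at day 2 and 9 of 11 (81.8%) at day 4, beside 18.9% and 33.7% of all genes compared. The plates differed: at day 2, 8 of the 11 lay above 0 on all 3 plates. Tubb5 (-1.29), Ranbp1 (-0.27) and Tuba1b (-0.13) lay below 0 on plate 3. By plate the list median was 2.58, 2.08 and 0.92 at day 2 and 1.88, 3.18 and -1.44 at day 4. Stmn1, stathmin, which destabilises microtubules and is abundant in dividing cells, was found in 1 of 39 uncrushed wells (2.56%, 0.0649% to 13.5%), 10 of 25 day 2 wells (40%, 21.1% to 61.3%) and 11 of 24 day 4 wells (45.8%, 25.6% to 67.2%). Its median was 0, 1.24 and 1.67 FPKM and its highest value 316, 2443 and 2138 FPKM in the 3 groups. It differed from uncrushed by 3.28 at day 2 and by 3.14 at day 4. By plate the differences were 4.55, 2.80 and 2.23 at day 2 and 2.94, 3.56 and 0.81 at day 4. The plate 3 value at day 4 rests on 2 deep wells, and Stmn1 was found in neither.

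Hmgb2, a chromatin protein of proliferating cells that bends DNA, stood in 2 of 39 uncrushed wells (5.13%, 0.627% to 17.3%), in 14 of 25 at day 2 (56%, 34.9% to 75.6%) and in 10 of 24 at day 4 (41.7%, 22.1% to 63.4%). Its median was 0 FPKM in uncrushed, 23.7 in day 2 and 0.159 in day 4 wells, and its highest value 36.7, 267 and 337 FPKM. It differed by 3.34 at day 2 and 2.23 at day 4. All 4 wells that met the mitosis criterion at day 2, and all 4 at day 4, held both Stmn1 and Hmgb2. Stmn1 was in 9 of 11 day 2 wells that met either criterion and in 1 of the other 14, and at day 4 in 8 of 11 and 3 of 13.

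Ran, the small GTPase of nuclear import and of the spindle, was found in 9 of 39 uncrushed, 11 of 25 day 2 and 17 of 24 day 4 wells, with medians of 0.536, 1.01 and 161 FPKM. Its difference from uncrushed was 1.72 at day 2 and 3.79 at day 4. Ranbp1, a cofactor of its GTP hydrolysis, was found in 6, 10 and 15 wells and differed by 1.5 and 3.52. For Ran and Ranbp1 the plate 3 difference at day 4, over 2 wells, was -1.44 and -1.59, against 4.97 and 1.88 on plate 1.

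Jpt1, a phosphoprotein also known as Hn1, differed by 3.18 and 2.98 and Dek, a chromatin protein, by 2.02 and 1.90. Hmgn2, Hmgb1, Tuba1b and Tubb5, which every cell uses to some degree, were found in 28.2% to 66.7% of uncrushed wells. They differed by 1.07 to 1.65 at day 2 and by 0.70 to 2.26 at day 4. Lmnb1, lamin B1, was found in 0, 4 and 2 wells, and its day 2 difference of 1.01 was -0.02 without the wells holding markers of other cells. Under 50% of the low values were whole reads for 9 genes, among them Hmgb1, Hmgb2, Hmgn2, Tuba1b, Stmn1, Ran and Ranbp1. How reads shared with near-identical copies were counted was not given in the sources used here, so the levels of these genes are uncertain.

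Day 4 set against day 2 gave fewer differences. Of the 39 genes 5 were higher at day 4 by 1 or more, while 14.8% of 10148 genes were, and 3 were lower by 1 or more, while 1.52% of those genes were. The higher ones were Ran by 2.08, Ranbp1 by 2.02, Cdk4 by 1.72, Mcm6 by 1.65 and Birc5 by 1.27. On plate 3, with 2 deep day 4 wells, Ran (-1.56), Ranbp1 (-1.31), Mcm6 (-0.86) and Birc5 (-0.15) lay below 0, and without the wells holding markers of other cells Birc5 was higher by 0.40. Dut had a difference of -1.99, Mcm5 of -1.22 and Hmgb2 of -1.11, each below 0 on plates 1 and 2. These 3 genes lay below 0 on plate 3 too, but there the median of all 39 was -0.87. The median over the 39 was 0.11, against 0.29 over all genes compared, and 37 of the 39 passed the filter. The count of higher genes was 10 without plate 1 and 3 with the conflicting wells counted as day 2. Among the other lists the largest differences of day 4 from day 2 were 1.03 for Rfc1, -0.99 for Fen1 and -0.67 for Cdc45 in S phase, -1.48 for Spc25, -0.78 for Kif2c and -0.77 for Racgap1 in mitosis, and 1.38 for Trp53, 1.09 for Ccng1 and -0.88 for Btg1 among the inhibitors.

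Other genes of the cycle, from lists of the same pathways, are set here beside all genes compared, of which 18.9% were higher by 1 or more at day 2 and 33.7% at day 4, with medians of 0.36 and 0.66. At day 2 the filter that all genes compared had passed was met by 11 of 42 other S phase genes, 11 of 45 other mitosis genes and 10 of 15 inhibitors, and at day 4 by 13, 9 and 11. Of 42 other S phase genes 6 were higher than in uncrushed wells by 1 or more at day 2 and 6 at day 4 (14.3% each), with medians of 0.32 and 0.30. These values cover the whole list, most of which failed the filter, so they cannot be ranked against those of all genes compared. A gene found in no uncrushed well passes the filter only through crush wells. Of the list genes that passed, 6 of 11 were higher by 1 or more at day 2 and 6 of 13 at day 4. The largest were Dctpp1, a pyrophosphatase that cleans the nucleotide pool, at 2.29 and 1.81, and the clamp loader subunit Rfc2, at 1.95 and 1.77, followed by the flap endonuclease Fen1, at 1.35, on day 2 and by Rpa1, of the single-strand binding complex, at 1.43, on day 4. Of 45 other mitosis genes 9 (20%) were higher by 1 or more at day 2 and 5 (11.1%) at day 4, with medians of 0.47 and 0.22 over the whole list. Of those that passed the filter, 8 of 11 were higher by 1 or more at day 2 and 5 of 9 at day 4.

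Those mitosis genes included the histone variant gene H2ax, at 1.84 and 1.31, the kinetochore gene Spc25, at 1.45 on day 2 and found in no day 4 well, Cdca3, at 1.28 on day 2, and Cdc20, which activates the anaphase-promoting complex, at 1.48 on day 4. The checkpoint gene Bub3 averaged 2.18 at day 4 against 1.02 in uncrushed wells. The day 2 well with all 9 mitosis genes held 34 of these 45 as well, and the day 4 well with 9 S phase genes held 22 of the 42 other S phase genes. Uncrushed wells had at most 2 of the 45 and 6 of the 42. Of 15 other inhibitors and brakes of the cycle, 2 (13.3%) were higher by 1 or more at day 2, Btg1 by 1.49 and Btg2 by 1.34, while Gadd45b followed at 0.74. At day 4 the count was 1 (6.67%), Ccng1, which averaged 1.76 against 0.60 in uncrushed wells, followed by Trp53 at 0.98 and Rbl1 at 0.84.

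Gpr84, a G protein-coupled receptor that activated microglia express, was read beside the cell cycle genes. It was found in 5 of the 11 day 2 wells that met either criterion and in 1 of the other 14, in 10 of 11 and 2 of 13 at day 4, and in 5 of 39 uncrushed wells. As with Cdkn1a and Stmn1, these wells also had reads in more genes, and the part of that in these counts was not tested.

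Over all 144 wells, where in shallow ones a single read sets the level, more uncrushed wells held these genes. Mcm3 was at 1 FPKM or more in 6 of 54 uncrushed, 12 of 36 day 2 and 14 of 54 day 4 wells. Mki67 stood in 1, 7 and 7 wells and Stmn1 in 12, 22 and 21, on the same threshold. The median difference of the 39 genes at day 2 was 0.70 over all wells, against 1.07 over deep wells.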

How the data were processed

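The deposited values are FPKM per gene and well, made by the authors. Trim Galore 0.4.4, Trimmomatic 0.36, cutadapt 1.16, STAR 2.7.2b and featureCounts 1.6.1, with GRCm38.p6 (mm10), are named in the submitters' processing notes; the roles and strand setting were not given in the sources used here. Libraries were made from amplified cDNA by tagmentation, per the labels' protocols, with no molecular identifiers described.

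Reads were recovered from each well's FPKM and the gene lengths in the table. Of values under 100 reads 40.9% were whole within 0.01, so no count test was run. Deep wells had 50000 or more reads, and a gene was found at 10 or more. Levels are log2(FPKM + 1). Shares have exact 95% Clopper-Pearson intervals. No test between groups was made, because no label names an animal. The recovery of depth and the direction of set changes were tested on simulated whole reads. The detection limit, the thinning, the well criteria and the marker rules were not. Named genes were up to 4 per role with the largest difference from uncrushed, and 3 per comparison from the other lists; Mcm5, Rrm2, Cdk1 and the remaining members are named to account for every gene. The members and lists were chosen with earlier results of these data known. H2afx was matched as H2ax through RefSeq. Gpr84 was added as a gene of interest in the same cells.

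Alternatives left out each plate, the conflicting wells or the wells with other-cell markers, thinned the wells, included shallow wells, and changed the detection limit, the gene number, the pseudocount (0.1 or 10), the centring and the filter. Scripts ran under matplotlib 3.10.9, scipy 1.17.1, pandas 2.3.3, numpy 2.4.6 and Python 3.11.15.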

Additional observations from a re-analysis of the deposited data

Results flagged for a closer look

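Shallow wells, which are left out of the counts of S phase genes per well above, also carried S phase reads. At least 1 read of an S phase gene was present in 8 of 15 shallow uncrushed wells (53.3%, exact 95% interval 26.6% to 78.7%), 6 of 11 shallow day 2 wells (54.5%, 23.4% to 83.3%) and 15 of 30 shallow day 4 wells (50%, 31.3% to 68.7%). The day 2 share was picked out because it lies above the uncrushed share, yet it lies well inside the uncrushed interval, so no difference was detectable at this depth.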

How the results depend on the processing

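Of 108 recomputed values 13 left the limits set, which were the 95% interval of the main value for a share, a wide limit at these numbers of wells, and 1.5 times the main value for a count of genes. The share of uncrushed wells with 3 or more S phase genes was 0% in deep wells and 9.26% over all wells at 1 FPKM. The day 4 share, 33.3%, was 14.3% without plate 2 and 58.3% for 2 or more genes. The count of genes higher at day 2 than in uncrushed wells, 22, was 13 over all wells, 6 with a pseudocount of 10 and 14 after centring on the median of all genes. The count for day 4, 18, was 8 over all wells and 30 with a pseudocount of 0.1. The count for day 4 over day 2, 5, was 3 over all wells, 10 without plate 1, 3 with the conflicting wells as day 2, and 9 and 2 with pseudocounts of 0.1 and 10. The causes were not tested. Shares that stayed inside their interval still moved: the day 2 S phase share, 36%, was 21.4% without plate 1, and the day 4 one was 50% without plate 1. The day 2 mitosis share, 16%, was 7.14% without plate 1 and 8% for 5 or more genes, and the day 4 one, 16.7%, was 33.3% at 1 read. No paired analysis was possible because replicate numbers only name wells and no label ties wells of different groups to an animal. Depth limits what can be said of any single gene: 0 of 39 wells allows up to 9.03%, and levels in shallow wells rest on single reads.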
